A study of Mus musculus with 3 samples.

Results

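The chemokine ligands were examined in regenerating mouse muscle as a family of 38 genes. They were all gene symbols that begin with Ccl or Cxcl followed by a number, with Cx3cl1 and Xcl1 added and Pf4 left out. Repeated symbols were summed, which gave 38 of the 32245 symbols in the files, and 31 of them had at least 50 unique molecular identifiers (UMIs, single captured transcripts) over all kept cells. Single-cell RNA sequencing was done on cell suspensions of the tibialis anterior of C57/BL6J mice, 4 days after muscle damage by an injection of barium chloride. The 3 libraries were young PBS (young mice given saline), old PBS (old mice given saline) and old rMETRNL (old mice given recombinant meteorin-like protein). The protein or saline was injected into the muscle. All 3 groups carried the same injury, and no uninjured muscle was analysed here. Each group was 1 library, made from several pooled mice per the study's methods, so no test between groups was possible. Every interval below covers counting error and says nothing of the spread between mice.

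Chemokines are small secreted or membrane-tethered proteins that attract leukocytes through G-protein-coupled receptors. In damaged muscle, ligands of Ccr2 draw monocytes from the blood, ELR-motif CXC ligands draw neutrophils, and Cxcr3 ligands, which interferons induce, draw T and NK cells. Others, the homeostatic chemokines, are made without inflammation and position cells within tissues.

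The files held 12168, 12568 and 14012 cell barcodes in young PBS, old PBS and old rMETRNL, with 218059089, 179295668 and 228966697 UMIs, and values given in threes keep this order throughout. Between 58 and 80 barcodes were shared by any 2 libraries. After filters on genes, mitochondrial UMIs and doublet calls, 10318, 10019 and 11469 cells were kept. Clusters made without any chemokine ligand were named from marker genes. The 4 classes compared were macrophage/monocyte-like cells (5963, 5615 and 6393 cells), FAP-like cells (fibro/adipogenic progenitors, the stromal cells marked by Pdgfra, 1692, 1388 and 1767), endothelial-like cells (625, 895 and 928) and dendritic-like cells (614, 353 and 634). Of their marker lists, 12 of 14, 8 of 10, 10 of 10 and 10 of 11 markers were highest in the class they name. The median UMI count of endothelial-like cells was 11024, 3721 and 6672, so these cells were shallowest in old PBS. For 9 macrophage genes, among them Lyz2 and C1qa, the level in other classes over that in macrophage/monocyte-like cells had a median of 2.07%, 2.55% and 2.11% in FAP-like and 2.13%, 3.79% and 3.11% in endothelial-like cells. These values are given below as a reference for macrophage RNA found in droplets of other classes. In dendritic-like cells the same median was 19.5%, 19.3% and 17.8%. The 9 genes ranged widely there, from 3.48%, 5.56% and 2.47% (C1qc, C1qc and C1qa) to 82.4%, 79.1% and 85.6% (Laptm5). How much of this was free macrophage RNA was not tested.

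The upstream sequence is shown for 4 members that the comparisons below turn on. Ccl3, Ccl12 and Cxcl10 were lower in old PBS and higher in old rMETRNL in macrophage/monocyte-like cells, and Cxcl14 was higher in old PBS in FAP-like cells. Each line gives the 250 bases before the RefSeq start in GRCm38.p6, read on the gene's strand, with capitals marking every match to the interferon-type letters GAAANNGAA or the kappaB-type letters GGAANNTCC on either strand, or to TATAAA on the gene's strand.
Ccl3 (chr11:83649379-83649628, minus strand): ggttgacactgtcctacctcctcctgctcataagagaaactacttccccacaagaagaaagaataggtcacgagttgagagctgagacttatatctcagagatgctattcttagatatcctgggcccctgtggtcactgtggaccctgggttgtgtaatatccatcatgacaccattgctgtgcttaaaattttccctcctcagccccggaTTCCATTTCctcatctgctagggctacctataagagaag
Ccl12 (chr11:82101595-82101844, plus strand): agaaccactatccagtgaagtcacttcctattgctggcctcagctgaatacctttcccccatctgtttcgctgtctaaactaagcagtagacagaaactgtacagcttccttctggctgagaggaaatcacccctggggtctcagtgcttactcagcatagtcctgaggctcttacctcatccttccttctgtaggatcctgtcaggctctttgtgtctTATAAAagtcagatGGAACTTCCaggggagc
Cxcl10 (chr5:92348890-92349139, minus strand): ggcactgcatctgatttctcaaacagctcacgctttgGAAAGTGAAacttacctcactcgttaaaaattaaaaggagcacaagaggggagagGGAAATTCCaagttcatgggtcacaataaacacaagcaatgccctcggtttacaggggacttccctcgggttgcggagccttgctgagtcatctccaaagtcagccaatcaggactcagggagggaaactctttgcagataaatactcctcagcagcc
Cxcl14 (chr13:56296552-56296801, minus strand): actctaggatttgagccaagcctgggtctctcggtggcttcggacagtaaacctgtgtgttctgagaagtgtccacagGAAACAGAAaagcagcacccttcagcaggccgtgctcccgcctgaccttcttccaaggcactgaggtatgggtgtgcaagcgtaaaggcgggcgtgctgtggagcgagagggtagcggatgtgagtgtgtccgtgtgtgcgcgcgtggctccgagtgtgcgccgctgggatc

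RefSeq windows were found for 23 of the 31 members. The interferon-type letters stood in 6 of these 23 (Ccl1, Ccl19, Ccl3, Cxcl10, Cxcl14 and Cxcl9), or 26.1%, against 7.16% of all 27025 genes with a window. The kappaB-type letters stood in 6 (Ccl1, Ccl12, Cxcl1, Cxcl10, Cxcl2 and Cxcl3), against 3.56% of all genes, and TATAAA in 7, against 8.12%. Cxcl10 was the only one of the 4 printed windows with both the interferon-type and the kappaB-type letters, at bases -213 to -205 and -158 to -150 from the start. A match describes letters and is not a bound site.

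The part of the RNA taken by the whole family was lowest in young PBS and highest in old rMETRNL, with 6001, 6473 and 7033 UMIs per 1000000 UMIs of all kept cells (CPM). By role, the 4 genes listed as Ccr2 ligands took 1858, 1888 and 2444 CPM and the neutrophil-attracting CXC ligands 1602, 2005 and 1868. The Cxcr3 ligands took 719, 631 and 629. The homeostatic ligands took 380.1, 509 and 482, the membrane-bound pair 280.2, 353 and 248, and the eosinophil and type 2 ligands 78.1, 109 and 94.2 CPM. Values over all cells mix the makeup of a library with the level per cell, which cannot be told apart there, so the comparisons below stay within a class.

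The class with the highest level differed between ligands, as compared over the 8 named classes with at least 100 cells in every library. Of the 31 members, 9 were highest in macrophage/monocyte-like cells by the mean of the 3 libraries (Cxcl2, Ccl8, Ccl4, Cxcl16, Ccl3, Ccl6, Ccl9, Ccl12 and Ccl24), and 8 in FAP-like cells (Cxcl1, Ccl2, Ccl7, Cxcl14, Cxcl5, Cxcl3, Cxcl13 and Ccl20). Endothelial-like cells led for 5 (Cxcl10, Cxcl9, Cxcl12, Cx3cl1 and Ccl21a), T/NK-like cells for 4 (Ccl5, Xcl1, Ccl1 and Ccl25), pericyte/smooth muscle-like cells for 2 (Ccl11 and Ccl19), dendritic-like cells for 2 (Ccl22 and Ccl17) and tenocyte-like cells for 1 (Ccl27a), while myogenic-like cells led for 0. The leading class was the same in all 3 libraries for 25 members. It changed for Ccl2, Cxcl10, Cxcl16, Cxcl12, Ccl25 and Ccl21a. For all of these but Ccl21a the leading mean was only 1.03 to 1.17 times the second. In old PBS, Ccl2 and Cxcl10 were highest in pericyte/smooth muscle-like cells. Neighbouring genes in the genome differed in this: on chromosome 11 (GRCm38, GENCODE M21), Ccl2 (chr11:82035571-82037453), Ccl7 (chr11:82045712-82047525), Ccl11 (chr11:82057823-82062955), Ccl12 (chr11:82101845-82103400) and Ccl8 (chr11:82115185-82116799) follow each other, and Ccl2 and Ccl7 led in FAP-like, Ccl11 in pericyte/smooth muscle-like, and Ccl12 and Ccl8 in macrophage/monocyte-like cells. Ccl5 (chr11:83525778-83530518), Ccl9 (chr11:83572919-83578636), Ccl6 (chr11:83587882-83593087), Ccl3 (chr11:83647844-83649355) and Ccl4 (chr11:83662584-83664683) form a further group on that chromosome, of which all but Ccl5 led in macrophage/monocyte-like cells. On chromosome 5, Cxcl5 (chr5:90759360-90761624), Cxcl3 (chr5:90786103-90789600), Cxcl1 (chr5:90891241-90893115) and Cxcl2 (chr5:90903871-90905938) lie together, and Cxcl2 alone of these led in macrophage/monocyte-like cells.

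**Figure D1:**
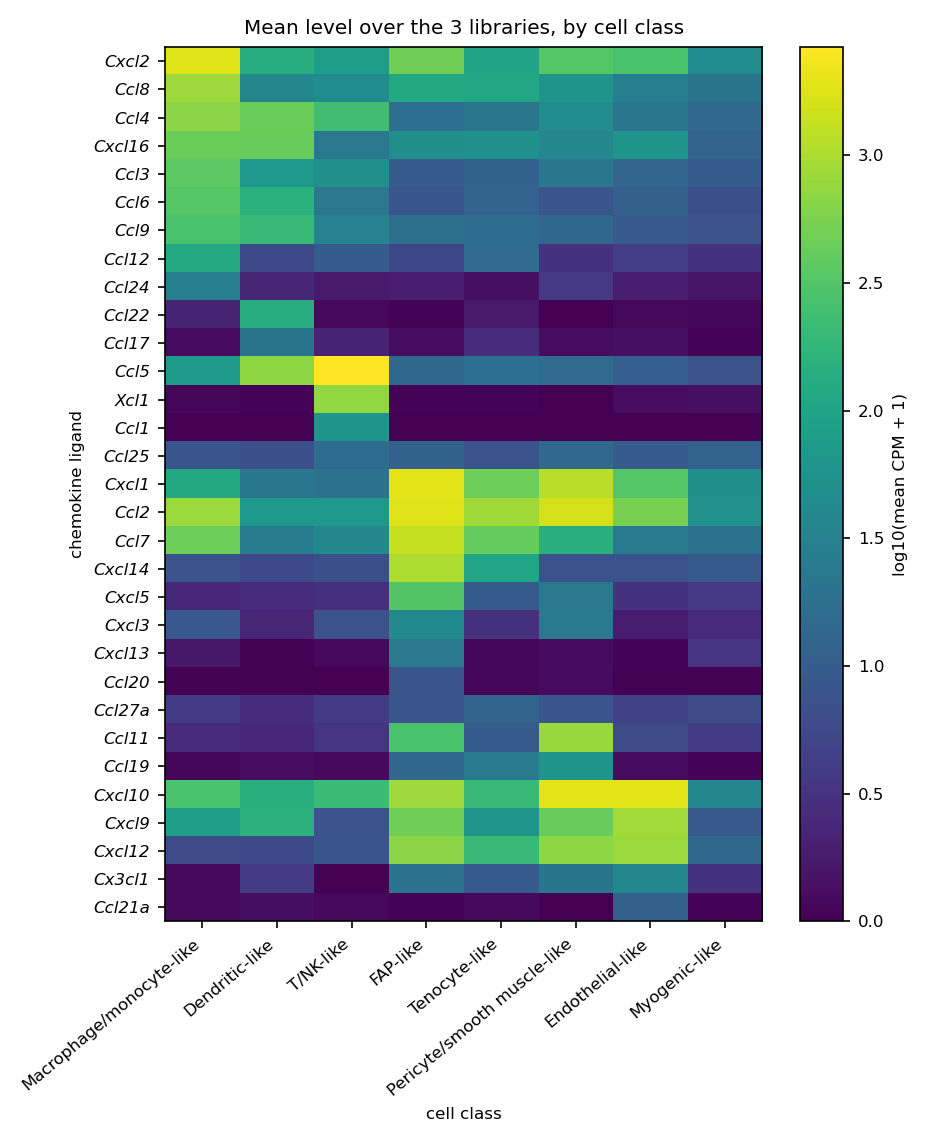
Mean level of the 31 chemokine ligands (rows) in the 8 cell classes with at least 100 cells in every library (columns), as log10 of the mean CPM over the 3 libraries plus 1. The rows are ordered by the class with the highest level, so that the bright cells move from macrophage/monocyte-like cells at the top to endothelial-like cells at the bottom, and Cxcl10 and Ccl2 are bright in several classes.

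Because classes differ in size, the class with the highest level did not always hold most of a ligand's UMIs. Macrophage/monocyte-like cells held 96.7%, 94.7% and 95.1% of all Ccl12 UMIs and 81.6%, 82.3% and 81.9% of those of Cxcl2, while FAP-like cells held 95.9%, 97.0% and 97.0% of Cxcl14. Ccl2 was split between macrophage/monocyte-like cells (42.1%, 48.2% and 48.2%) and FAP-like cells (48.6%, 42.8% and 43.7%). Cxcl10 came from FAP-like (37.7%, 47.8% and 42.1%), macrophage/monocyte-like (37.9%, 21.2% and 33.9%) and endothelial-like cells (18.5%, 23.3% and 17.8%), and the macrophage/monocyte-like portion was lowest in old PBS.

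**Figure D2:**
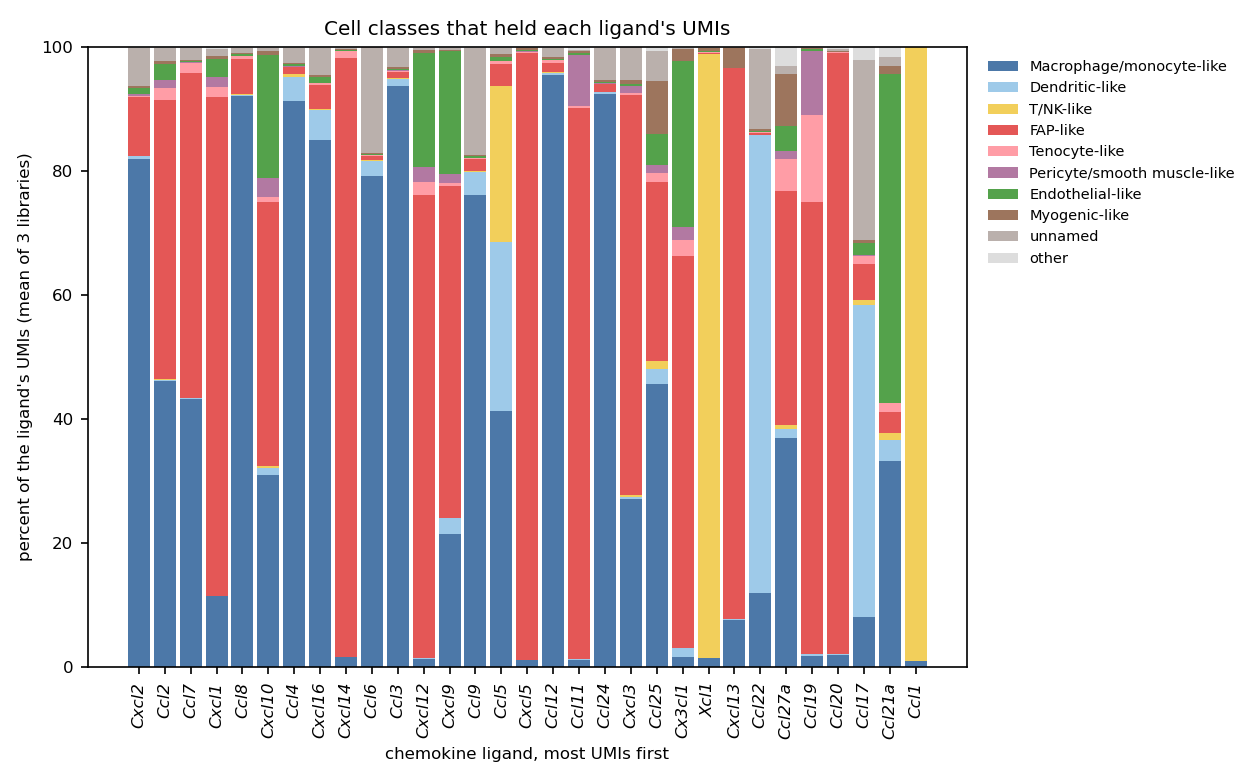
Percent of each ligand's UMIs held by each cell class, as the mean of the 3 libraries, with ligands ordered by their UMIs over all kept cells. Ccl12, Ccl3 and Cxcl14 come almost wholly from 1 class, Ccl2 and Ccl7 mainly from 2, and Cxcl10, Cxcl9, Ccl5, Ccl25 and Ccl27a from several.

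How these ligands differ between injured muscle of old and young mice is given by the level in old PBS divided by that in young PBS (the old/young ratio). How they differ when old mice received the protein is given by old rMETRNL divided by old PBS (the rMETRNL/PBS ratio). Both ratios share the old PBS library. A gene counted as higher or lower where its CPM in a class differed by at least 1.5-fold. In macrophage/monocyte-like cells, 27 members had at least 50 UMIs, and in old PBS 4 were higher (Ccl11, Ccl17, Cxcl13 and Cxcl5, against 6.85% of all genes tested) and 6 lower (Ccl12, Ccl21a, Ccl22, Ccl3, Ccl4 and Cxcl10, against 6.59%) than in young PBS by at least 1.5-fold. In old rMETRNL, 7 were higher than in old PBS (Ccl12, Ccl21a, Ccl3, Ccl4, Ccl8, Cx3cl1 and Cxcl10, against 5.83%) and 2 lower (Ccl17 and Cxcl13, against 4.08%). The median ratio of the members was 0.968 (old/young) and 1.11 (rMETRNL/PBS), beside 0.999 and 1.03 over all genes of the class. In FAP-like cells, 26 members had at least 50 UMIs, and in old PBS 6 were higher (Ccl11, Ccl19, Ccl6, Ccl8, Cxcl13 and Cxcl14, against 7.47% of all genes tested) and 2 lower (Ccl20 and Ccl5, against 6.91%) than in young PBS by at least 1.5-fold. In old rMETRNL, 5 were higher than in old PBS (Ccl20, Ccl3, Ccl5, Ccl9 and Cxcl13, against 5.05%) and 1 lower (Cxcl14, against 4.97%). The median ratio of the members was 1.12 (old/young) and 0.959 (rMETRNL/PBS), beside 0.974 and 1 over all genes of the class.

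In endothelial-like cells, 22 members had at least 50 UMIs, and in old PBS 7 were higher (Ccl11, Ccl21a, Ccl8, Ccl9, Cxcl14, Cxcl5 and Cxcl9, against 9.66% of all genes tested) and 1 lower (Ccl3, against 8.87%) than in young PBS by at least 1.5-fold. In old rMETRNL, 2 were higher than in old PBS (Ccl21a and Ccl5, against 5.97%) and 7 lower (Ccl11, Ccl8, Ccl9, Cxcl10, Cxcl14, Cxcl2 and Cxcl9, against 6.97%). The median ratio of the members was 1.22 (old/young) and 0.905 (rMETRNL/PBS), beside 0.975 and 1.03 over all genes of the class. In dendritic-like cells, 20 members had at least 50 UMIs, and in old PBS 9 were higher (Ccl17, Ccl22, Ccl5, Ccl8, Cx3cl1, Cxcl1, Cxcl12, Cxcl14 and Cxcl9, against 6.68% of all genes tested) and 2 lower (Ccl3 and Ccl4, against 7.52%) than in young PBS by at least 1.5-fold. In old rMETRNL, 3 were higher than in old PBS (Ccl2, Ccl3 and Ccl4, against 5.82%) and 4 lower (Ccl17, Ccl22, Cx3cl1 and Cxcl16, against 6.13%). The median ratio of the members was 1.47 (old/young) and 0.948 (rMETRNL/PBS), beside 0.992 and 1.011 over all genes of the class. Members with fewer than 200 UMIs in a class are given by these counts alone, and the values of the others follow by role.

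The group listed as Ccr2 ligands, a role that draws monocytes into tissue, included Ccl8, whose order of libraries differed between classes. The roles come from a list of genes, and the receptor that each ligand used was not examined here. Ccl12 was held mostly by macrophage/monocyte-like cells, where it had 129 (young PBS), 81.7 (old PBS) and 159 (old rMETRNL) CPM, with 12056, 7388 and 16529 UMIs. It was lower in old PBS than in young PBS by a ratio of 0.634 (95% interval 0.616 to 0.653, 0.525 to 0.750 under other processing) and higher in old rMETRNL than in old PBS by 1.94 (95% interval 1.89 to 1.99). Old PBS was thus the lowest of the 3 libraries and old rMETRNL the highest. Ccl8 had 754 (young PBS), 703 (old PBS) and 1066 (old rMETRNL) CPM in the same cells, which gave a rMETRNL/PBS ratio of 1.52 (95% interval 1.502 to 1.53, 1.41 to 1.61 under other processing) and an old/young ratio of 0.932. In FAP-like cells old PBS was instead the highest library for Ccl8, with 93.7, 155 and 106 CPM, an old/young ratio of 1.65 (95% interval 1.59 to 1.72, 1.34 to 1.75 under other processing) and a rMETRNL/PBS ratio of 0.685. Its level there was 12.4%, 22.0% and 9.94% of that in macrophage/monocyte-like cells, above the 2.07%, 2.55% and 2.11% of the macrophage genes. In endothelial-like cells Ccl8 had 20.7, 40.7 and 23.4 CPM, with ratios of 1.97 (95% interval 1.62 to 2.38, 1.07 to 3.68 under other processing) and 0.575 (95% interval 0.480 to 0.689, 0.477 to 0.921 under other processing). This was 2.75%, 5.80% and 2.20% of the macrophage level, so that old PBS lay above each of the 9 macrophage genes and old rMETRNL below their median. With the median subtracted, the old/young ratio was 3.02, and the rMETRNL/PBS ratio could not be computed. When the class was clustered further, sub-cluster 7, led by Cd74 and the macrophage gene C1qa (18, 13 and 15 cells), held 25.9% of its Ccl8 UMIs. Its mean level was 164 CPM, against 12.3 to 96.3 CPM in the other sub-clusters. Over 5 sub-clusters the old/young ratio was above 1 in 4 and below 1 in 1. The rMETRNL/PBS ratio was below 1 in 3 and above 1 in 2 (0.219 to 2.54). In dendritic-like cells Ccl8 had 20.6, 44.7 and 48.6 CPM and an old/young ratio of 2.17 (95% interval 1.74 to 2.71), which ran from 0.731 to 2.98 under other processing and passed below 1 with doublet calls kept and with a marker gate. These levels were 2.73%, 6.36% and 4.56% of those in macrophage/monocyte-like cells, below the median of the macrophage genes (19.5%, 19.3% and 17.8%). They were above the lowest of those genes in old PBS (5.56%) and old rMETRNL (2.47%), and below it in young PBS (3.48%).

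Ccl2 and Ccl7, the most abundant ligands of this role, stayed under 1.5-fold in their main sources. In FAP-like cells Ccl2 had 1657 (young PBS), 1756 (old PBS) and 2070.3 (old rMETRNL) CPM, and Ccl7 had 1116, 1457 and 1389.6 CPM. Both also stood high in macrophage/monocyte-like cells, where Ccl2 had 723, 691 and 1019 CPM with a rMETRNL/PBS ratio of 1.48 (95% interval 1.46 to 1.49), just under 1.5-fold, and Ccl7 425, 410.4 and 568 CPM with a rMETRNL/PBS ratio of 1.38. Old rMETRNL was the highest library for both in these cells, and their old/young ratios were 0.956 and 0.965. In dendritic-like cells Ccl2 was low, at 40.8, 59.1 and 100.2 CPM, and its rMETRNL/PBS ratio was 1.69 (95% interval 1.47 to 1.96), with 1.16 to 2.52 under other processing.

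Ccl3 and Ccl4, inflammatory ligands that draw monocytes and T cells, were lowest in old PBS in both myeloid classes. In macrophage/monocyte-like cells Ccl4 had 778 (young PBS), 453 (old PBS) and 795 (old rMETRNL) CPM, and Ccl3 had 432, 245 and 415 CPM. The old/young ratio of Ccl4 was 0.582 (95% interval 0.575 to 0.589) and its rMETRNL/PBS ratio 1.76 (95% interval 1.73 to 1.78), and for Ccl3 they were 0.566 (95% interval 0.557 to 0.575) and 1.69 (95% interval 1.67 to 1.72). Old rMETRNL over young PBS gave 1.02 for Ccl4 and 0.959 for Ccl3, so that young PBS and old rMETRNL lay near each other. Under every other way of processing tried, the old/young ratio of Ccl4 stayed between 0.509 and 0.692 and its rMETRNL/PBS ratio between 1.62 and 1.91. The share of macrophage/monocyte-like cells with a Ccl4 UMI, after each cell was thinned to 2000 UMIs, was 35.8%, 26.5% and 37.6% (59.6%, 48.3% and 61.5% without thinning), against 2.03%, 0.870% and 0.935% in tenocyte-like cells, the class with the lowest share. Cells with fewer UMIs than that were left out of thinned shares, 114, 210 and 190 macrophage/monocyte-like, 1, 13 and 27 FAP-like, 39, 210 and 188 endothelial-like, 11, 4 and 14 dendritic-like and 4, 1 and 9 T/NK-like cells.

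In dendritic-like cells old PBS was again the lowest library for both genes, and young PBS the highest. Ccl4 had 584 (young PBS), 260.4 (old PBS) and 496 (old rMETRNL) CPM there, with ratios of 0.446 (95% interval 0.418 to 0.476) for age and 1.90 (95% interval 1.78 to 2.04) for treatment. Ccl3 had 96.3, 29.6 and 71.0 CPM, with ratios of 0.308 (95% interval 0.253 to 0.371) and 2.39 (95% interval 1.98 to 2.93). Ccl3 was 22.3%, 12.1% and 17.1% of its macrophage level in these cells. The median of the macrophage genes, which ranged widely, was 19.5%, 19.3% and 17.8%. Ccl4 was 75.1%, 57.5% and 62.4% of its macrophage level. In FAP-like cells Ccl3 had 8.97, 6.93 and 10.5 CPM and a rMETRNL/PBS ratio of 1.51 (95% interval 1.29 to 1.78, 1.497 to 2.54 under other processing), and in endothelial-like cells 17.1, 8.41 and 11.3 CPM and an old/young ratio of 0.495 (95% interval 0.353 to 0.677). These last levels were 2.08%, 2.83% and 2.53% and 3.95%, 3.44% and 2.72% of the macrophage level, beside 2.07%, 2.55% and 2.11% and 2.13%, 3.79% and 3.11% for the macrophage genes, and the endothelial old/young ratio ran from 0.335 to 2.28 under other processing. Few cells held much of it. The top 1% of cells held 52.2%, 64.8% and 47.3% of Ccl3 UMIs in FAP-like cells and 64.4%, 34.6% and 38.8% in endothelial-like cells.

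Ccl6 and Ccl9, which act on Ccr1, were highest among the named classes in macrophage/monocyte-like cells, where Ccl6 had 265 (young PBS), 299.7 (old PBS) and 415 (old rMETRNL) CPM and Ccl9 269, 239 and 315 CPM. Their rMETRNL/PBS ratios there were 1.39 and 1.32, below 1.5-fold. In FAP-like cells Ccl6 had 4.37, 9.02 and 8.71 CPM and an old/young ratio of 2.06 (95% interval 1.72 to 2.48), at 1.65%, 3.01% and 2.10% of the macrophage level, beside 2.07%, 2.55% and 2.11% for the macrophage genes. Ccl9 had 13.0, 14.5 and 24.3 CPM there, a rMETRNL/PBS ratio of 1.68 (95% interval 1.51 to 1.88, 1.44 to 2.11 under other processing), and 4.83%, 6.05% and 7.71% of the macrophage level, above that of the macrophage genes.

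Ccl5, made by activated T and NK cells, was highest in T/NK-like cells, with 2498 (young PBS), 3244 (old PBS) and 2225 (old rMETRNL) CPM. Dendritic-like cells came next, with 521, 806 and 775 CPM and an old/young ratio of 1.55 (95% interval 1.48 to 1.62, 1.31 to 1.75 under other processing). In FAP-like cells it had 16.0, 8.48 and 14.6 CPM, an old/young ratio of 0.530 (95% interval 0.458 to 0.609) and a rMETRNL/PBS ratio of 1.72 (95% interval 1.496 to 1.996). Those FAP-like values rested on few cells, since the 1% of cells with the most Ccl5 held 92.2%, 81.7% and 88.0% of its UMIs, and without them the old/young ratio was 1.24. With doublet calls kept the rMETRNL/PBS ratio was 0.786. In endothelial-like cells Ccl5 had 97, 43 and 116 UMIs and a rMETRNL/PBS ratio of 1.61 (95% interval 1.13 to 2.36), which was 0.497 with doublet calls kept.

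**Figure D3:**
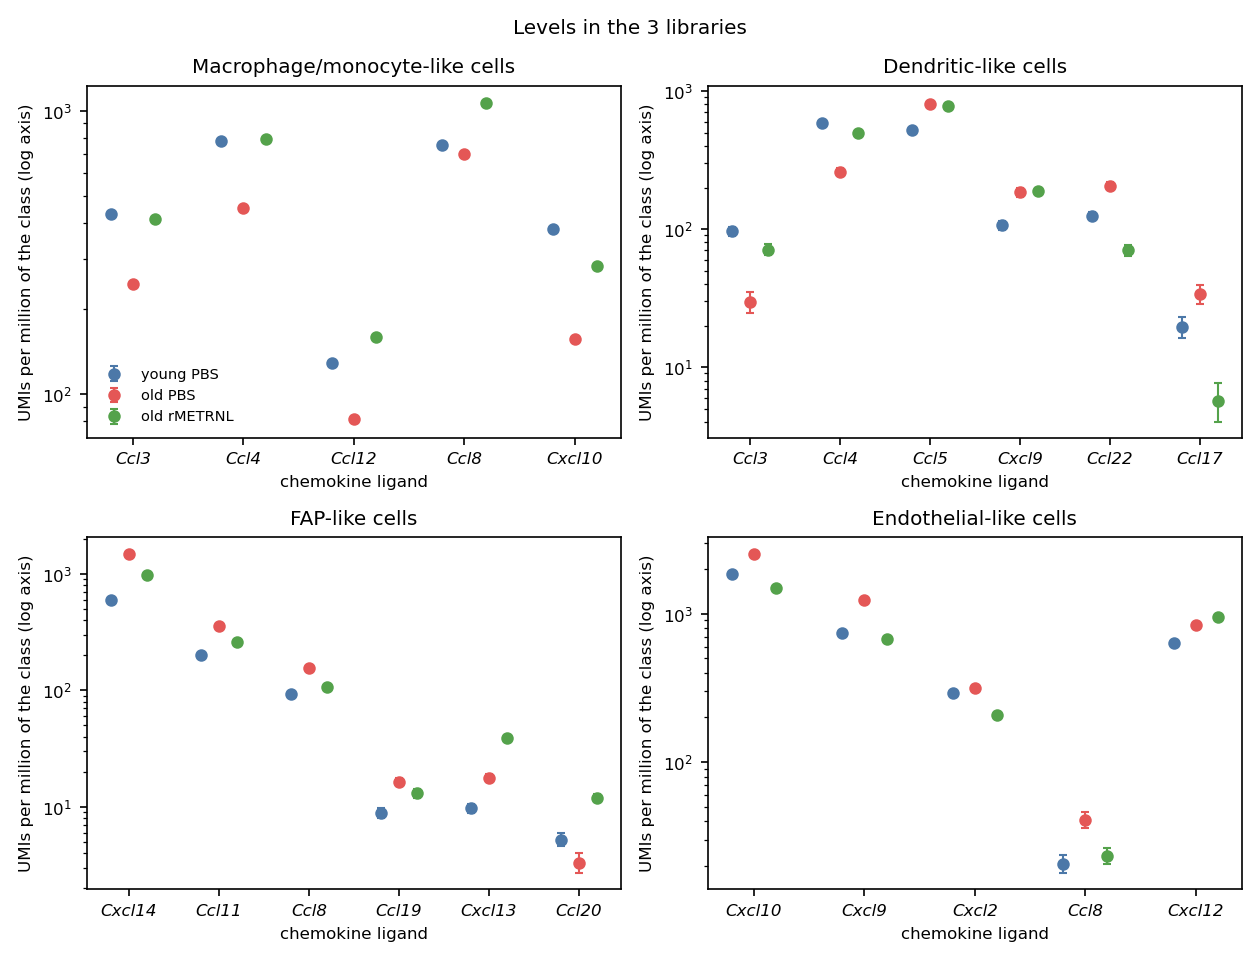
Levels of selected chemokine ligands in 4 cell classes, in CPM of the class on a log axis, with 1 point per library and bars for the exact 95% Poisson interval. In macrophage/monocyte-like cells old PBS is the lowest library for all 5 ligands drawn, whereas in FAP-like cells it is the highest for Cxcl14, Ccl11, Ccl8 and Ccl19.

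The ELR-motif CXC ligands, which act on Cxcr2 of neutrophils, were with the Ccr2 ligands the most abundant roles and stayed within 1.5-fold between libraries in the cells that held most of them. Cxcl2 in macrophage/monocyte-like cells had 1624 (young PBS), 1941 (old PBS) and 1856 (old rMETRNL) CPM, and Cxcl1 in FAP-like cells had 1602, 2173 and 2067 CPM. Their old/young ratios there were 1.20 and 1.36, and their rMETRNL/PBS ratios 0.956 and 0.951. In endothelial-like cells Cxcl2 had 291, 314 and 209 CPM and a rMETRNL/PBS ratio of 0.666 (95% interval 0.626 to 0.708, 0.540 to 0.740 under other processing). Cxcl1 in dendritic-like cells had 108, 123 and 151 UMIs and an old/young ratio of 1.76 (95% interval 1.35 to 2.30), which ran from 1.06 to 1.81 under other processing. Cxcl3, another ligand of this role, had 44.6, 39.2 and 41.2 CPM in FAP-like cells. Cxcl5 was held by FAP-like cells (98.6%, 97.5% and 97.4% of its UMIs) at 322, 337 and 294 CPM, and its old/young ratio of 1.52 in macrophage/monocyte-like cells stood on 106, 156 and 156 UMIs and was 0.686 with a marker gate.

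The Cxcr3 ligands Cxcl10 and Cxcl9 draw T and NK cells, and for Cxcl10 old PBS was the lowest library in macrophage/monocyte-like cells and the highest in endothelial-like cells. In macrophage/monocyte-like cells Cxcl10 had 382 (young PBS), 156 (old PBS) and 282 (old rMETRNL) CPM, with 35705, 14069 and 29370 UMIs. Its old/young ratio was 0.408 (95% interval 0.3998 to 0.416) and its rMETRNL/PBS ratio 1.81 (95% interval 1.77 to 1.85), and old rMETRNL stood between old PBS and young PBS. After thinning, 21.8%, 13.1% and 19.8% of the cells had a Cxcl10 UMI (43.3%, 34.2% and 40.1% unthinned), against 5.02%, 3.94% and 5.76% in myogenic-like cells, the class with the lowest share. In endothelial-like cells Cxcl10 was highest in old PBS, at 1857, 2498 and 1496 CPM, with an old/young ratio of 1.35 and a rMETRNL/PBS ratio of 0.599 (95% interval 0.5855 to 0.612, 0.572 to 0.722 under other processing). The thinned share of these cells was 44.0%, 54.7% and 42.4%, so that it was also highest in old PBS, where the endothelial-like cells were shallowest before thinning. Old PBS was also the highest library in FAP-like cells, with 752, 1002 and 784 CPM, and in pericyte/smooth muscle-like cells, with 1650.4, 2549 and 1491 CPM.

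Cxcl9 in endothelial-like cells had 744 (young PBS), 1232 (old PBS) and 675 (old rMETRNL) CPM, so that old PBS was again the highest library. The old/young ratio was 1.66 (95% interval 1.604 to 1.71, 1.43 to 1.77 under other processing) and the rMETRNL/PBS ratio 0.547 (95% interval 0.530 to 0.566), and over the other ways of processing the rMETRNL/PBS ratio ran from 0.533 to 0.719. The thinned share of endothelial-like cells with a UMI was 35.8%, 46.4% and 36.9% (53.9%, 51.8% and 48.7% unthinned, where the shallower cells of old PBS count as they are), against 1.37%, 0.985% and 0.480% in myogenic-like cells. In dendritic-like cells Cxcl9 had 106, 184 and 189 CPM and an old/young ratio of 1.73 (95% interval 1.57 to 1.92, 1.43 to 2.28 under other processing), with 63.6%, 52.0% and 43.2% of its UMIs in the top 1% of cells. Macrophage/monocyte-like cells had 93.6, 73.0 and 81.1 CPM, so the rMETRNL/PBS ratio of Cxcl9 there was 1.11 where that of Cxcl10 was 1.81. Cxcl11, the remaining ligand of Cxcr3, is not among the symbols analysed here.

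Among the eosinophil and type 2 ligands, Ccl11 (eotaxin, which acts on Ccr3 of eosinophils) was stromal. Pericyte/smooth muscle-like cells (112, 139 and 126 cells) had 667 (young PBS), 1119 (old PBS) and 579 (old rMETRNL) CPM, and FAP-like cells 202, 353 and 261 CPM. In FAP-like cells the old/young ratio was 1.75 (95% interval 1.70 to 1.79) and the rMETRNL/PBS ratio 0.739, so that old PBS was highest in both stromal classes. The thinned share of FAP-like cells with a Ccl11 UMI was 25.4%, 35.5% and 29.9% (62.9%, 71.9% and 61.6% unthinned), against 0.166%, 0.573% and 0.323% in dendritic-like cells. In macrophage/monocyte-like cells Ccl11 was at 1.07, 1.79 and 1.78 CPM, under 1% of the FAP-like level, where its old/young ratio of 1.67 ran from 1.21 to 2.96. Ccl24, another eotaxin, was held by macrophage/monocyte-like cells at 23.4, 26.4 and 37.7 CPM, with a rMETRNL/PBS ratio of 1.43 (95% interval 1.36 to 1.503).

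Ccl22 and Ccl17, the ligands of Ccr4, were highest among the named classes in dendritic-like cells and, among the libraries, in old PBS there. In old rMETRNL unnamed cells held 68.9% of all Ccl17 UMIs, against 15.0% in dendritic-like cells. Ccl22 had 124 (young PBS), 207 (old PBS) and 70.0 (old rMETRNL) CPM, with 861, 929 and 496 UMIs, an old/young ratio of 1.66 (95% interval 1.52 to 1.83, 1.38 to 1.86 under other processing) and a rMETRNL/PBS ratio of 0.339 (95% interval 0.303 to 0.378, 0.310 to 0.730 under other processing). Ccl17 had 19.5, 33.8 and 5.65 CPM, with ratios of 1.74 (95% interval 1.37 to 2.21) and 0.169 (95% interval 0.115 to 0.238). Old rMETRNL was below young PBS for both. Ccl17 was concentrated, since the top 1% of cells held 91.1% of its UMIs in young PBS and 73.0% in old PBS, and with a marker gate its old/young ratio was 0.845 while its rMETRNL/PBS ratio stayed at or below 0.344 under all processing tried. The thinned share with a Ccl22 UMI was 9.12%, 13.2% and 6.13% (16.9%, 27.2% and 15.8% unthinned), against 0 of 586, 685 and 740 cells, which allows up to 0.512%, 0.438% and 0.405%, in endothelial-like cells. In macrophage/monocyte-like cells Ccl22 had 134, 81 and 135 UMIs, and its old/young ratio of 0.627 passed above 1 under 4 of the other ways of processing. Ccl1, a ligand of Ccr8, was found almost only in T/NK-like cells, with 168, 62 and 38 UMIs and 96.9, 37.0 and 41.9 CPM, and 1 cell held 87 of those in young PBS.

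Of the homeostatic ligands, Cxcl14 and Cxcl12 were the most abundant, and Cxcl14 in FAP-like cells was highest in old PBS. Cxcl14, a stromal chemokine, had 593 (young PBS), 1484 (old PBS) and 977 (old rMETRNL) CPM, with 27939, 46876 and 45453 UMIs. The old/young ratio was 2.50 (95% interval 2.47 to 2.54) and the rMETRNL/PBS ratio 0.659 (95% interval 0.650 to 0.667), and under other processing they stayed within 2.28 to 2.68 and 0.638 to 0.741. Old rMETRNL stood between old PBS and young PBS. The thinned share of FAP-like cells with a Cxcl14 UMI had the same order, at 36.3%, 56.6% and 44.9% (64.6%, 80.3% and 71.2% unthinned), against 0.166%, 1.15% and 0.645% in dendritic-like cells. Tenocyte-like cells had 108, 111 and 101 CPM. Cxcl12, which retains cells that carry Cxcr4, differed little in FAP-like cells (638, 666 and 694 CPM). In endothelial-like cells it had 633 (young PBS), 842 (old PBS) and 942 (old rMETRNL) CPM, with an old/young ratio of 1.33 and old rMETRNL over young PBS at 1.49 (95% interval 1.44 to 1.54).

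Ccl19, a ligand of Ccr7, was stromal, with 45.8, 79.9 and 46.5 CPM in pericyte/smooth muscle-like cells and 8.91, 16.3 and 13.0 CPM in FAP-like cells, where the old/young ratio was 1.83 (95% interval 1.61 to 2.09). Cxcl13, which draws B cells through Cxcr5, had 9.67 (young PBS), 17.6 (old PBS) and 39.2 (old rMETRNL) CPM in FAP-like cells, with ratios of 1.82 (95% interval 1.61 to 2.07) and 2.22 (95% interval 2.02 to 2.45). In FAP-like cells it was the one member higher in old PBS than in young PBS and higher again in old rMETRNL by at least 1.5-fold each. Cxcl13 rested on few cells, with 96.1%, 76.8% and 80.1% of its UMIs in the top 1% and thinned shares of 0.591%, 1.89% and 2.47%, and its old/young ratio ran from 1.63 to 10.4 under other processing. Ccl21a, a Ccr7 ligand of lymphatic endothelium, had 1, 45 and 238 UMIs in endothelial-like cells and an old/young ratio of 45.9 (95% interval 11.6 to 2749.7), which turned to 0.495 with doublet calls kept and was 1.51 without the top 1% of cells. In old rMETRNL 1 cell held 162 of these UMIs, and without the top 1% of cells the rMETRNL/PBS ratio of 3.15 became 0.601. Ccl21a has near-identical copies, Ccl21b and Ccl21c, which had 0 UMIs here, so reads could not be assigned with certainty within this set. Ccl25, a ligand of Ccr9, was low, between 5.90 CPM in dendritic-like and 15.0 CPM in T/NK-like cells by the mean of the libraries, and had 12.1, 11.9 and 20.9 CPM in the latter.

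The membrane-bound ligands differed in source. Cxcl16, the ligand of Cxcr6, had 469 (young PBS), 505 (old PBS) and 387 (old rMETRNL) CPM in macrophage/monocyte-like cells, and 53.1%, 55.7% and 46.6% of these cells held a UMI after thinning (89.6%, 89.8% and 85.3% unthinned), against 1.45%, 3.50% and 0.769% in T/NK-like cells (6.64%, 8.96% and 6.47% unthinned). In dendritic-like cells it had 373, 547 and 342 CPM, so that old PBS was highest, with a rMETRNL/PBS ratio of 0.625 (95% interval 0.591 to 0.662, 0.619 to 0.668 under other processing) and an old/young ratio of 1.47. Cx3cl1 (fractalkine), the ligand of Cx3cr1, was highest in endothelial-like cells at 34.8, 38.8 and 43.1 CPM and had 20.02, 18.5 and 18.0 CPM in FAP-like cells. Its age and rMETRNL/PBS ratios in endothelial-like cells were 1.12 and 1.11, both under 1.5-fold.

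Of the remaining ligands, Xcl1, which NK and CD8 T cells make to reach Xcr1-bearing dendritic cells, had 980.3 (young PBS), 564 (old PBS) and 670.1 (old rMETRNL) CPM in T/NK-like cells. The thinned share of T/NK-like cells with a Xcl1 UMI was 37.7%, 18.5% and 29.2% (47.9%, 32.8% and 37.4% unthinned), against 0 of 586, 685 and 740 cells, which allows up to 0.512%, 0.438% and 0.405%, in endothelial-like cells. Within T/NK-like cells, the cluster led by Gzma, Ncr1 and Klra4 had 1532, 1474 and 1268 CPM of Xcl1 and held 49.3%, 18.9% and 28.1% of the class, and the cluster led by Cd3e and Cd8b1 had 146, 136 and 217 CPM. Ccl20, a ligand of Ccr6, had 5.22 (young PBS), 3.29 (old PBS) and 11.9 (old rMETRNL) CPM in FAP-like cells, with ratios of 0.633 (95% interval 0.497 to 0.796, 0.0641 to 0.702 under other processing) and 3.59 (95% interval 2.92 to 4.49, 3.101 to 17.2 under other processing). All but a few of its UMIs came from the top 1% of cells (95.5%, 100% and 97.8%), 1 of which held 203 of the 552 in old rMETRNL, and the thinned shares were 0.355%, 0.291% and 0.460%, whose exact 95% binomial intervals overlapped (0.130 to 0.771, 0.0793 to 0.743 and 0.199 to 0.904). Ccl27a, summed over 3 identifiers and with a near-identical copy in Ccl27b, was highest in tenocyte-like cells at 9.89, 12.9 and 11.6 CPM.

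The smaller classes shared ligands with the 4 main ones. Pericyte/smooth muscle-like cells, the mural cells of vessels, had 1242, 1895 and 1600.5 CPM of Ccl2, 1060.1, 1384 and 1070.2 CPM of Cxcl1 and 678, 676 and 706 CPM of Cxcl12. Old PBS was their highest library for Cxcl10, Ccl11 and Ccl19, as it was in FAP-like cells. Tenocyte-like cells (203, 120 and 223 cells) had 1002, 765 and 835 CPM of Ccl2 and 431, 405 and 561 CPM of Cxcl1. T/NK-like cells (211, 201 and 139 cells) had 337, 131 and 239 CPM of Ccl4 and 67.5, 28.7 and 57.3 CPM of Ccl3. Both were lowest in old PBS there. The cluster led by Gzma and Ncr1 also held its smallest share of the class in old PBS (49.3%, 18.9% and 28.1%). Within clusters the old/young ratio of Ccl4 was 0.372 (95% interval 0.299 to 0.461) in the cluster led by Cd3e and Cd8b1 and 0.442 (95% interval 0.341 to 0.561) in the Gzma and Ncr1 cluster, and that of Ccl3 was 0.997 (95% interval 0.512 to 2.06) and 0.447 (95% interval 0.267 to 0.696).

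The members just above the minimum of 50 UMIs were Ccl1 with 270 and Ccl21a with 373, and just below it stood Ccl28 with 33 and Cxcl17 with 11. Cxcl15 had 4 UMIs, Ccl26 had 1, and Ccl21b, Ccl21c and Ccl27b had 0. The last 5, with Ccl28 and Cxcl17, were not analysed further.

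Within macrophage/monocyte-like cells, 7 sub-clusters were made without chemokine ligands, and their sizes differed between libraries. Sub-cluster 3, led by Hes1, Txnip, Ifit3, Slfn1 and Ifit2, held 35.1%, 12.9% and 25.2% of the class. The stress genes Hspa1a and Hspa1b were also among its 8 leading genes, and their part in the results below was not tested. Sub-cluster 1, led by Il1b, Tnip3, Clec4e and Nlrp3, held 29.9%, 33.7% and 23.9%, sub-cluster 2, led by Atp6v0d2, Spp1 and Gpnmb, 18.6%, 29.9% and 26.0%, and sub-cluster 4, led by Cd163, Egr1, F13a1 and Lyve1, 8.23%, 15.0% and 14.4%. Sub-cluster 5 was led by the cycling genes Top2a and Birc5. Sub-clusters 6 and 7 were small, the one led by Hbb-bs and Col1a1 at low UMI counts and the other by the neutrophil genes S100a9 and S100a8.

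The sub-cluster with the highest level differed between ligands. Sub-cluster 4 had the highest Cxcl2 of the 5 larger ones (5553, 5559 and 5774 CPM), Ccl8 (3149, 2836 and 3675), Ccl2 (3518, 3204 and 3475), Ccl12 (374, 373 and 391) and Ccl24 (101, 123 and 141). Cxcl10 was highest in sub-cluster 3 by the mean of the libraries, and Cxcl16 in sub-cluster 1 (699.5, 761 and 617). Sub-cluster 2, the Spp1 and Gpnmb cells, had the lowest Ccl12 of the 5.

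The differences between libraries were also seen inside sub-clusters. Ccl4 had 864, 444 and 848 CPM in sub-cluster 1, 380.3, 206 and 389.6 in sub-cluster 2 and 887, 695 and 1021 in sub-cluster 3. Its old/young ratio was below 1 in 6 of 7 sub-clusters with at least 50 UMIs, all but sub-cluster 6, and its rMETRNL/PBS ratio was above 1 in 6. Ccl12 had 127, 58.5 and 128 CPM in sub-cluster 1 and 34.4, 17.6 and 57.1 in sub-cluster 2, with old/young ratios below 1 in 6 of 6 sub-clusters and rMETRNL/PBS ratios above 1 in 6. In sub-cluster 4, however, Ccl12 was even, at 374, 373 and 391 CPM. Cxcl10 had 750.05, 272 and 679 CPM in sub-cluster 3 and 392, 240.4 and 366 in sub-cluster 1, while in sub-cluster 4 it had 248, 274 and 242, and its old/young ratio was below 1 in 5 of 6. For Cxcl10 the libraries thus differed both in the size of sub-cluster 3 and in the level within it. Ccl8 had rMETRNL/PBS ratios above 1 in 6 of 6, between 1.09 and 3.31.

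**Figure D4:**
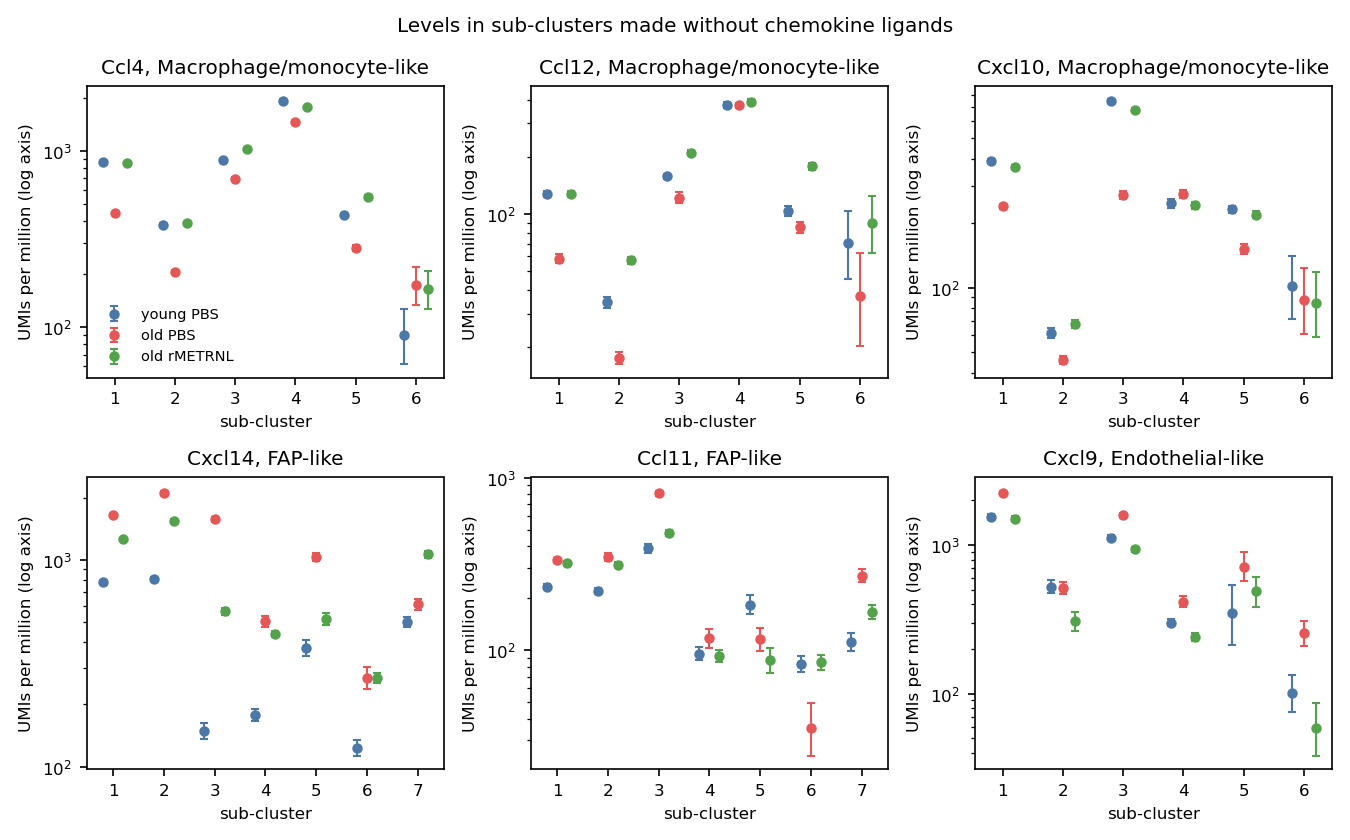
Levels of 6 ligand and class pairs in sub-clusters, in CPM on a log axis, with 1 point per library and bars for the exact 95% Poisson interval. Sub-clusters with under 28 cells in a library are left out, and old PBS is lowest for Ccl4 and Ccl12 in most macrophage/monocyte-like sub-clusters and highest for Cxcl14 in sub-clusters 1 to 5 of the FAP-like cells.

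FAP-like cells fell into 7 sub-clusters. Sub-cluster 1, led by Il33, Ptx3, Tnfaip6 and Il6, held 35.2%, 47.9% and 34.9% of the class, sub-cluster 2, led by heat shock genes such as Hspa1a and Hspb1, 33.5%, 15.1% and 21.7%, and sub-cluster 3, led by Pi16, Sema3c and Dpp4, 8.39%, 17.0% and 15.1%. Cxcl14 had 778, 1646 and 1261 CPM in sub-cluster 1, 808, 2111 and 1548 in sub-cluster 2 and 149, 1567 and 564 in sub-cluster 3. The old/young ratio of Cxcl14 was above 1 in 7 of 7 sub-clusters and reached 10.5 in sub-cluster 3, and its rMETRNL/PBS ratio was below 1 in 5. Ccl11 was highest in sub-cluster 3 (389.5, 809 and 478 CPM), with old/young ratios above 1 in 5 of 7. Cxcl1, Cxcl10 and Cxcl5 were highest in sub-cluster 1, with 2746, 2944 and 3324 CPM of Cxcl1, 1362, 1371 and 1433 of Cxcl10 and 644, 503 and 464 of Cxcl5, and Cxcl10 there was even between libraries. Sub-cluster 7, at 4.02%, 4.32% and 4.47% of the class, was led by Cd74 and the macrophage gene C1qa, and held Ccl6 at 47.0, 102 and 83.6 CPM, against 1.47, 2.65 and 3.87 in sub-cluster 1.

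Endothelial-like cells also fell into 7 sub-clusters. Cxcl9 was highest in sub-cluster 1, led by the interferon genes Ifit2 and Rsad2 with Rgcc (1549, 2255 and 1509 CPM), and sub-cluster 3, led by the venular genes Selp, Ackr1 and Sele (1122, 1585 and 939). These held 23.2%, 34.9% and 32.7% and 26.7%, 12.3% and 19.1% of the class. The rMETRNL/PBS ratio was below 1 in all 7 sub-clusters for Cxcl9 and in all 7 for Cxcl10, and the old/young ratio was above 1 in 6 for each. Cxcl12 was highest in sub-cluster 2, led by Timp4, Cyp26b1 and Tcf15 (1552, 1951 and 2147 CPM), and lowest in the venular sub-cluster 3 (121, 195 and 303). Cx3cl1 was highest in sub-cluster 6, led by Mgp, Gkn3 and Sema3g (154, 149.7 and 209.6). Dendritic-like cells held 2 clusters, and the smaller one, led by Fscn1 and Il12b, held 13.7%, 15.3% and 10.1% of the class. It had 895, 1222 and 596 CPM of Ccl22 and 3363, 4946 and 8610.3 of Ccl5, against 25.8, 63.7 and 29.1 and 159, 223 and 165 in the cluster led by Cd209a. The rMETRNL/PBS ratio of Ccl22 was below 1 in both. For Ccl5, the top 1% of all dendritic-like cells held 33.6%, 25.7% and 41.0% of its UMIs in the class. In old rMETRNL 1 cell held 969 of the 5493.

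Lists of other genes of the pathway were described in the same way, by the genes past 1.5-fold. Of 7 interferon target genes, 5 (Irf7, Isg15, Ifit1, Ifit3 and Rsad2) were lower in old PBS than in young PBS in macrophage/monocyte-like cells, against 6.59% of all genes, with a median ratio of 0.419 over the 7. The same 5 were higher in old rMETRNL than in old PBS, against 5.83%, with a median of 1.96. Cxcl10 had the same directions in these cells. In FAP-like cells 1 (Gbp2) was higher with age, against 7.47%, and 3 (Irf7, Isg15 and Ifit3) were lower, against 6.91%, while Cxcl10 was highest in old PBS there. With treatment 1 (Isg15) was higher, against 5.05%, and the medians were 1.15 for age and 1.07 for treatment. In dendritic-like cells Gbp2 was higher with age, against 6.68%, and Irf7, Isg15 and Ifit3 lower, against 7.52%, beside an old/young ratio of 1.48 for Cxcl10. With treatment Irf7, Isg15, Ifit3 and Rsad2 were higher there, against 5.82%, beside a rMETRNL/PBS ratio of 1.09 for Cxcl10, and the medians of the list were 0.721 and 1.65. In endothelial-like cells 2 (Irf1 and Ifit1) were higher with age, against 9.66%, and 1 (Irf7) lower, against 8.87% (median 1.35). With treatment 3 (Irf1, Ifit1 and Gbp2) were lower, against 6.97% (median 0.700). Of 5 NF-kB feedback genes, none passed 1.5-fold in macrophage/monocyte-like, endothelial-like or dendritic-like cells, and 1 (Nfkbie) was lower with age in FAP-like cells, against 6.91%. Their medians for age and treatment were 0.998 and 0.929 in macrophage/monocyte-like, 1.05 and 1.0004 in FAP-like, 1.17 and 0.829 in endothelial-like and 1.31 and 0.779 in dendritic-like cells. Of 22 chemokine receptors, 15 had at least 50 UMIs in macrophage/monocyte-like cells. With age 3 of them were higher (Ccr1, Xcr1 and Ackr1, against 6.85% of all genes) and 3 lower (Ccr3, Ccr10 and Cxcr3, against 6.59%), with a median of 1.03. With treatment 1 was higher (Ccr3, against 5.83%) and 1 lower (Ccrl2, against 4.08%), with a median of 0.965. In FAP-like cells 10 receptors had at least 50 UMIs, of which 4 (Ccr1, Ccr9, Ackr1 and Ackr2) were higher with age, against 7.47%, and 1 (Cx3cr1) lower, against 6.91%. With treatment 2 (Ccr1 and Ccr9) were lower there, against 4.97%, and the medians were 1.27 and 0.840. In endothelial-like cells, of 7 receptors, 2 (Cx3cr1 and Ackr1) were higher with age, against 9.66%, and 1 (Ccr1) lower, against 8.87%. With treatment 2 (Ccr2 and Ackr1) were lower, against 6.97%, with medians of 1.32 for age and 0.876 for treatment. In dendritic-like cells 9 receptors had at least 50 UMIs. With age 1 was higher (Ccr7, the receptor for Ccl19 and Ccl21a, against 6.68%) and 3 lower (Ccr2, Cxcr3 and Cx3cr1, against 7.52%). With treatment those 3 were higher, against 5.82%, and 2 (Ccr7 and Cxcr4) lower, against 6.13%. The medians were 0.967 for age and 1.25 for treatment.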

How the data were processed

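Cells were captured on the 10x Chromium platform, and the authors deposited whole-number UMI counts per gene and barcode for each library. The file headers name Cell Ranger 5.0.0, and the submitters' processing notes list 3.1.0 and 5.0.0 with the mouse build mm10, whereas the study's methods name another release, so the release that made the counts is uncertain. Gene positions came from GENCODE M21 (GRCm38) by gene identifier, with 32235 matched (99.8%), and upstream sequences from RefSeq (GRCm38.p6). Columns of samples outside the series numbered 0.

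Kept barcodes had 500 genes or more, with less than 10% of UMIs from mitochondrial genes. Scrublet's automatic threshold called 0 doublets in each library, so the 9.69%, 10.03% and 11.1% of barcodes with the highest scores were called instead. The libraries were normalized, joined without batch correction on 2000 variable genes that held no chemokine ligand, reduced to 30 components and clustered (Leiden, resolution 0.8, 22 clusters, scanpy 1.11.5, leidenalg 0.10.2, Python 3.11.15). A cluster was named from marker lists or left unnamed where its leading genes went against the name, and sub-clusters were made at resolution 0.4. Rebuilt names may differ from the study's own.

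Raw UMIs were summed per class and library and divided by the class total. Ratios carry exact 95% intervals conditional on the 2 counts, levels exact Poisson intervals and shares exact Clopper-Pearson intervals. All cover counting error alone, so a deep library narrows them without showing that mice are alike. A count of 0 was taken to allow up to 3 counts. The ratio code was tested on simulated data. Values were printed for the 2 most abundant members of each role, for members with at least 200 UMIs in 1 of the 4 classes and a ratio past 1.5-fold whose interval left out 1, for members highest elsewhere, and for those nearest the minimum of 50 UMIs. The members and the other gene lists were chosen with earlier results of these data known. Some items of these lists are not reported here. No test was run, as each group was 1 library.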

Additional observations from a re-analysis of the deposited data

Results flagged for a closer look

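Among the macrophage/monocyte-like, FAP-like, endothelial-like and dendritic-like classes, 4 ligands with at least 200 UMIs in both classes had ratios past 1.5-fold in opposite directions for the same pair of libraries. Each comes from 1 library per group, and the difference was not tested. The rMETRNL/PBS ratio of Cxcl10 was 1.81 in macrophage/monocyte-like and 0.599 in endothelial-like cells, 3.02 times apart. For Ccl8 it was 1.52 and 0.575 in the same classes, 2.64 times apart, and the second value ran from 0.477 to 0.921 under other processing, at 2.75%, 5.80% and 2.20% of the macrophage level in the 3 libraries. Within 5 endothelial-like sub-clusters the rMETRNL/PBS ratio of Ccl8 went both ways, below 1 in 3 and above 1 in 2 (0.219 to 2.54). The old/young ratio of Ccl22 was 1.66 in dendritic-like and 0.627 in macrophage/monocyte-like cells, 2.65 times apart, and the second value passed above 1 under other processing. For Ccl5 it was 1.55 in dendritic-like and 0.530 in FAP-like cells, 2.92 times apart, and the FAP-like value rested on few cells.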

How the results depend on the processing

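Of the 50 named ratios past 1.5-fold, between 45 and 50 stayed on the same side of 1 under each alternative that could move them. All 50 did so with Leiden resolution 1.6 and with median-ratio scaling. Between 34 and 48 were still past 1.5-fold. Other UMI minimums change only which members are counted, so under them these ratios were the same by design. With free macrophage RNA subtracted, 47 ratios could be computed and were past 1.5-fold, but most of them could not change. The subtraction touched only ligands highest in macrophage/monocyte-like cells, and left macrophage/monocyte-like, dendritic-like and T/NK-like cells as they were. Ratios were not computed where a level fell below the subtracted one. These were old/young for Ccl6 in FAP-like and Ccl3 in endothelial-like cells, and rMETRNL/PBS for Ccl8 in endothelial-like cells. The subtraction, and the alternative that counts the cluster led by Retnla as macrophage/monocyte-like, were chosen after seeing the data. The old/young ratios that crossed 1 were those of Ccl8 in dendritic-like cells (0.766 with doublet calls kept, 0.731 with a marker gate), Ccl17 there (0.845, marker gate), Ccl3 in endothelial-like cells (1.14 doublet calls kept, 1.03 mean of per-cell CPM, 2.28 marker gate), Ccl21a there (0.495, doublet calls kept), Ccl5 in FAP-like cells (1.24, without the top 1% of cells), Cxcl5 in macrophage/monocyte-like cells (0.686, marker gate) and Ccl22 there (1.22 stricter cell filter, 1.11 looser filter, 1.29 resolution 0.4, 1.10 Retnla cluster counted). The rMETRNL/PBS ratios that crossed 1 were those of Ccl21a in endothelial-like cells (0.601, without the top 1%) and, with doublet calls kept, Ccl5 in endothelial-like (0.497) and FAP-like cells (0.786). The cause was not tested. The count of members past 1.5-fold moved in endothelial-like cells from 8 (old/young) to 4 with a minimum of 200 UMIs, where fewer members are tested, and to 13 with a marker gate, and in macrophage/monocyte-like cells from 9 (rMETRNL/PBS) to 5 with a minimum of 200 UMIs. Depth limited the rare members, and a low UMI total of endothelial-like cells in old PBS limited that class.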

Other observations

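A cluster of 347, 514 and 532 cells in young PBS, old PBS and old rMETRNL was led by Retnla, a gene of alternatively activated macrophages, with Mmp12, F10 and Ear2, and was left unnamed because Il7r, a marker on the T/NK list, stood among its leading genes. Its Ccl6 was 616, 926 and 991 CPM and its Ccl9 668, 731 and 868 CPM, both above the levels of macrophage/monocyte-like cells in every library. Ccl8 was below them, at 52.6, 80.6 and 128 CPM. Ccl24, an eosinophil attractant, had 7.24, 16.9 and 39.4 CPM there, and old rMETRNL was the highest library. The cluster held 0, 54 and 184 UMIs of Ccl17, at 0, 5.88 and 20.5 CPM, in 10 cells of old PBS and 11 of old rMETRNL, and 1 cell of the latter held 125. The order of its libraries for Ccl17 was thus the opposite of that in dendritic-like cells for old PBS and old rMETRNL. Ccl4 in the cluster had 258, 132 and 286 CPM, lowest in old PBS as in macrophage/monocyte-like cells.

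In myogenic-like cells, Cxcl14 had 1.45, 20.4 and 2.97 CPM, from 23, 134 and 43 UMIs over 469, 213 and 450 cells, and 1 cell held 109 of those in old PBS. The order of libraries was that of FAP-like cells, where the level was 593, 1484 and 977 CPM.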
